A study of Homo sapiens with 18 samples.

Results

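Messenger RNA of 35 genes of cholesterol and fatty acid synthesis and of their control by sterol regulatory element binding proteins (SREBPs) was examined in RPMI-8402 cells, a cell line established from human T-ALL (acute lymphoblastic leukaemia of T cells). The genes were taken from a list of symbols that was chosen with earlier results of these data known. Counts of these genes beside shares of all genes are therefore descriptive. All 35 were found among the 58735 genes of the count table and passed the filter on low counts that left 17346 genes. They fall into 7 genes of the mevalonate arm, 11 genes that lead on to cholesterol, 4 regulators, 2 genes of sterol transfer, 3 targets of the liver X receptors (LXRs) and 8 genes of fatty acid synthesis and desaturation. The genotypes were PIK3R1 knockout cells (KO) and cells with a non-targeting control (NT), whose genotype is labelled WT. The PIK3R1 product binds and regulates the catalytic subunits of PI3-kinase. Each genotype received the NOTCH inhibitor CB-103, the gamma-secretase inhibitor LY3039278 (GSI) or DMSO for 24 h. Of the 6 groups, KO CB-103, KO GSI, KO DMSO, NT CB-103, NT GSI and NT DMSO, each held 3 libraries. All groups shared the same medium with fetal bovine serum, which carries lipoproteins. The sources used here give neither the inhibitor doses nor the edited site, and do not say whether the KO cells were a clone or a pool.

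SREBPs are made as precursors in the membrane of the endoplasmic reticulum, where SCAP binds them and INSIG proteins retain the complex when sterols are abundant. When sterols are scarce the complex moves to the Golgi, the precursor is cleaved, and the released domain enters the nucleus and induces genes of sterol and fatty acid synthesis. SREBP-2, from SREBF2, acts mainly on sterol genes, and SREBP-1, from SREBF1, mainly on fatty acid genes. INSIG1 is itself an SREBP target. LXRs respond to oxysterols and induce the efflux transporters ABCA1 and ABCG1, the ubiquitin ligase gene MYLIP and SREBF1.

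Library totals ranged from 30416183 to 43558387 estimated reads. The labels do not say whether the 3 libraries of a group came from separate cultures, so the p-values measure only the spread between these libraries, which may be technical. Of 10 T-ALL markers, 9 averaged at least 1 CPM (counts scaled to a common library total) over all libraries, and the summed level of the 10 was 1049 to 1112 CPM in KO CB-103, 1346 to 1419 CPM in KO GSI and 1544 to 1642 CPM in KO DMSO libraries. It was 957.8 to 1062 CPM in NT CB-103, 1374 to 1404 CPM in NT GSI and 1869 to 1952 CPM in NT DMSO libraries. PTCRA was the marker under that level. The summed level of 6 myeloid markers, of which CD68 alone averaged at least 1 CPM, was 32.5 to 40.4 CPM in KO CB-103, 8.16 to 11.2 CPM in KO GSI and 4.65 to 5.33 CPM in KO DMSO libraries, and 15.1 to 17.2 CPM in NT CB-103, 7.66 to 8.31 CPM in NT GSI and 5.23 to 6.63 CPM in NT DMSO libraries. The summed level over all libraries was 1.27 to 5.668 CPM for B-cell markers, 2.787 to 25.91 CPM for markers of adherent cells, 0.104 to 0.4529 CPM for erythroid markers and 0.8882 to 3.759 CPM for hepatocyte and adipocyte markers, with HBB, HBA1, TTR and FABP4 at 0 in every library. PIK3R1 itself averaged 22.5 ± 1.02 CPM in KO DMSO libraries and 44.1 ± 1.53 CPM in NT DMSO libraries (SD, n = 3 each), and its level did not pass the test between KO CB-103 and NT CB-103 (27.8 ± 2.01 against 31.1 ± 2.21 CPM). The mitochondrial share of reads was 2.24 ± 0.415% in KO CB-103, 2.46 ± 0.0977% in KO GSI, 1.79 ± 0.0936% in KO DMSO, 5.23 ± 0.425% in NT CB-103, 3.79 ± 1.81% in NT GSI and 3.34 ± 0.331% in NT DMSO libraries. The NT GSI libraries stood apart from each other, with shares of 5.51, 1.90 and 3.95% and with a chi-square of 52.4 per degree of freedom between the counts of replicates 1 and 2, where the pairs of the other groups ranged from 4.47 to 17.97. The part of these shifts in the results was not tested.

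Most of the genes of sterol synthesis were higher with CB-103 than with DMSO in both genotypes. The 35 genes together took 0.921 ± 0.0380% of reads in KO CB-103 libraries against 0.451 ± 0.0047% in KO DMSO libraries, and 1.089 ± 0.0326% in NT CB-103 libraries against 0.438 ± 0.0031% in NT DMSO libraries (SD, n = 3 each). Most of the reads gained fell on SCD, FADS1, FADS2 and INSIG1, none of them an enzyme of sterol synthesis. Their means were 2616, 876, 1201 and 1412 CPM in KO CB-103 against 690, 250, 404.5 and 415 CPM in KO DMSO libraries. In KO cells 23 of 35 genes were higher with CB-103 and 2 were lower, at an adjusted p under 0.05 in edgeR's quasi-likelihood test over all genes, where 48.6% of all genes passed. In NT cells 25 were higher and 3 lower, where 58.2% of all genes passed. By direction, 24.9% of all genes were called higher and 23.7% lower in KO cells, and 29.5% higher and 28.7% lower in NT cells. The median log2 fold change of the 35 genes was 0.44 in KO and 0.46 in NT cells, beside medians over all genes of -0.01 and 0.04. The same 22 genes were higher in both genotypes, beside 3613 of the 17346 genes tested. The same 9 of the 22, HMGCS1, MSMO1, HSD17B7, INSIG1, STARD4, NPC1, SCD, FADS1 and FADS2, were at least 2-fold higher in both. Upwards, 6.04% of all genes reached that size in KO and 9.99% in NT cells. The share of all genes that reached it in both was not taken. In bulk libraries, a smaller share of cells carrying a transcript and less of it per cell cannot be told apart.

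**Figure D1:**
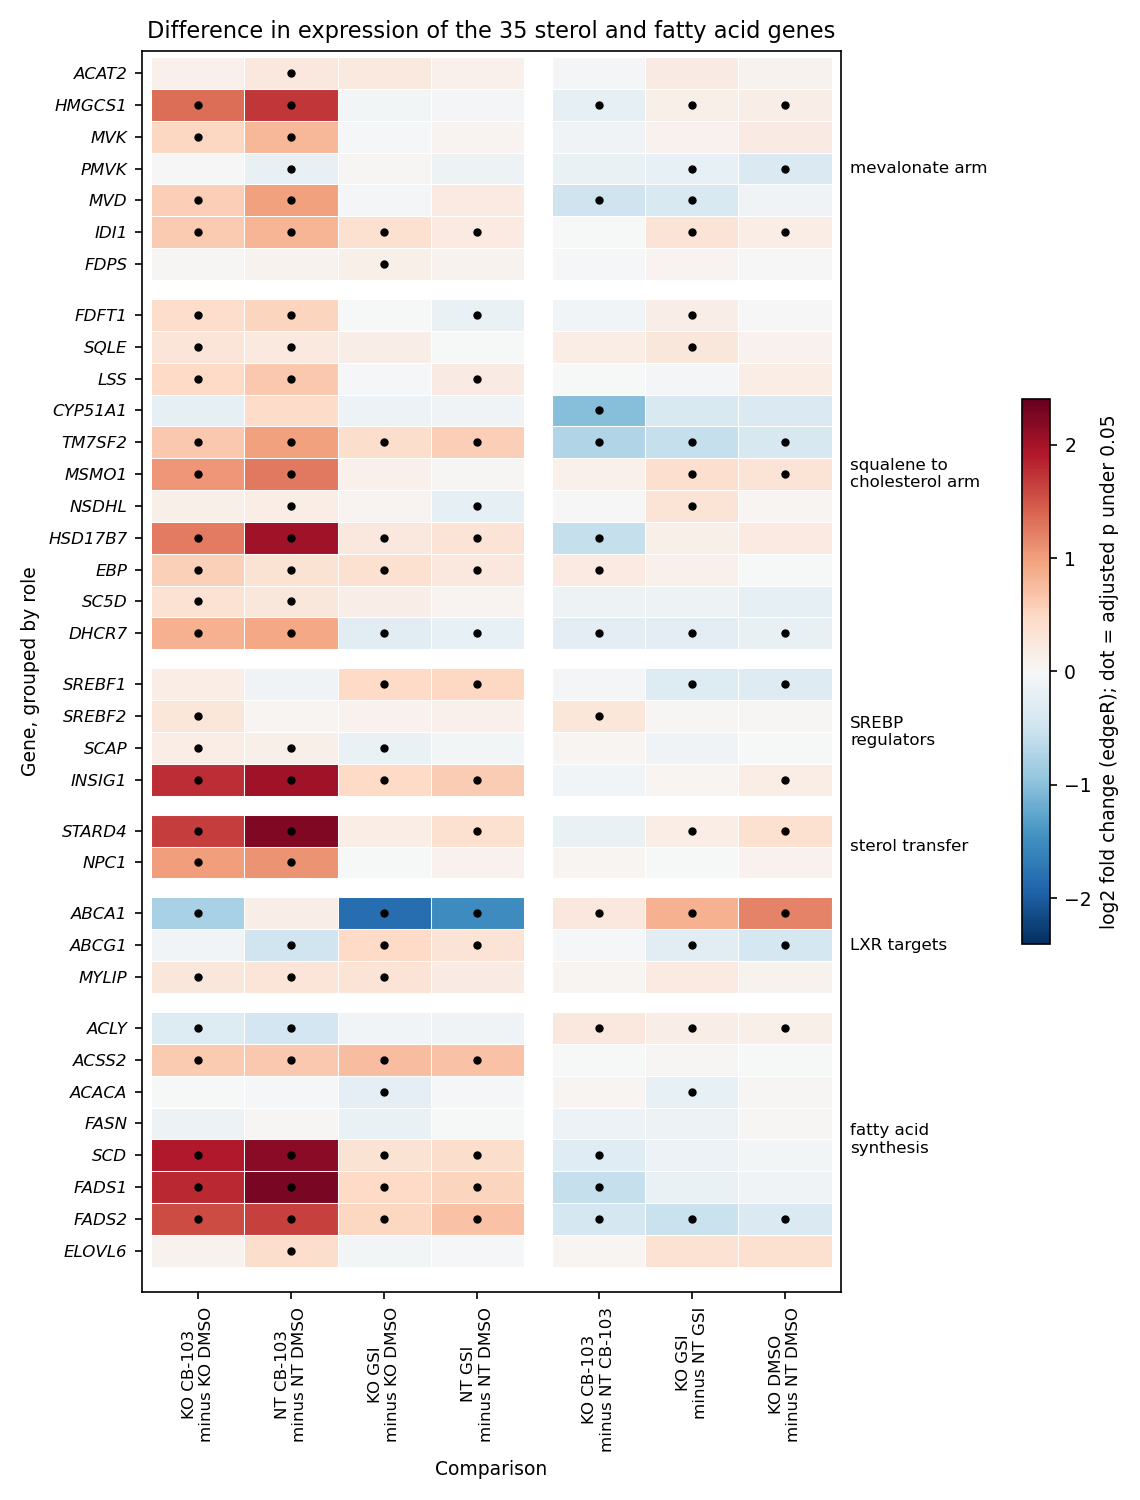
Differences of the 35 genes, with genes as rows grouped by role, in 7 comparisons of groups. Colour gives the log2 fold change of the edgeR fit and a dot marks an adjusted p under 0.05. Both CB-103 columns are mostly red, from FADS1 at 2.27 in NT cells down to ABCA1 at -0.77 in KO cells, while the GSI columns are pale except for ABCA1.

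Among the regulators, INSIG1 carried the CB-103 response. INSIG1 (chromosome 7) had 1514, 1288 and 1434 CPM in the KO CB-103 libraries, against 432, 412 and 399 CPM in the KO DMSO libraries. It had 1599, 1456 and 1420 CPM in the NT CB-103 libraries, against 373, 371 and 351 CPM in the NT DMSO libraries. Every CB-103 library stood above every DMSO library, 3.40-fold higher on average in KO and 4.09-fold in NT cells (log2 1.77 ± 0.06 (SE), adjusted p = 1.5e-13 in KO and log2 2.03 ± 0.06 (SE), adjusted p = 1.5e-14 in NT). The transcripts of the SREBPs and of SCAP moved far less. SREBF1 had 207, 210.0 and 217 CPM in KO CB-103 and 199, 186 and 176 CPM in KO DMSO libraries, and 226, 226 and 199 CPM in NT CB-103 and 236, 218 and 244 CPM in NT DMSO libraries. Neither difference passed (log2 0.18 ± 0.08 (SE), adjusted p = 0.098 in KO and -0.10 ± 0.08 (SE), adjusted p = 0.32 in NT). SREBF2 had 268, 245 and 257 CPM in KO CB-103 against 211, 212 and 206 CPM in KO DMSO libraries, a rise of 0.29 ± 0.05 on the log2 scale (adjusted p = 6.9e-05), and 214, 219 and 198 CPM in NT CB-103 and 202, 208 and 203 CPM in NT DMSO libraries, which overlapped (log2 0.04 ± 0.05, adjusted p = 0.51). SCAP, the escort of the SREBPs, had 116, 112 and 114 CPM in KO CB-103 and 101, 102.7 and 97.8 CPM in KO DMSO libraries. It had 114, 114 and 105 CPM in NT CB-103 and 98.7, 100.5 and 102 CPM in NT DMSO libraries. Both differences were called but small (log2 0.19 ± 0.05 and 0.15 ± 0.05), and the NT call was lost in 7 of the alternative settings.

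HMGCS1 led the mevalonate arm, and FDPS at its end did not pass. HMGCS1, cytosolic HMG-CoA synthase, had 190.2, 176 and 188 CPM in KO CB-103 against 71.2, 70.1 and 79.0 CPM in KO DMSO libraries. It had 214, 212 and 220.3 CPM in NT CB-103 against 64.6, 64.2 and 67.4 CPM in NT DMSO libraries. The groups were far apart, 2.52-fold in KO (adjusted p = 2.4e-13) and 3.29-fold in NT cells (adjusted p = 6.2e-15). MVK, mevalonate kinase, rose 1.44-fold in KO and 1.75-fold in NT cells. MVD, the decarboxylase that yields isopentenyl pyrophosphate, rose 1.505-fold and 1.98-fold, and IDI1, the isomerase, 1.55-fold and 1.76-fold, again in KO and in NT cells. ACAT2, the cytosolic acetoacetyl-CoA thiolase, was called in NT cells alone (log2 0.26, against 0.12 in KO cells with an adjusted p of 0.33), and the call was lost in 6 alternative settings. PMVK, the phosphomevalonate kinase that sits between MVK and MVD, did not share the rise. It averaged 39.9 ± 0.42 CPM in KO CB-103 and 39.9 ± 3.76 CPM in KO DMSO libraries, and 44.8 ± 1.34 CPM in NT CB-103 against 50.9 ± 3.02 CPM in NT DMSO libraries, where it was called lower (log2 -0.18, adjusted p = 0.034). That call was lost in 4 alternative settings, each of which leaves out a single library. FDPS, farnesyl pyrophosphate synthase, was called with CB-103 in neither genotype (log2 0.04 ± 0.04 in KO and 0.08 ± 0.04 in NT cells).

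Of the 11 genes from squalene to cholesterol, 9 rose in KO and 10 in NT cells, and none fell. HSD17B7, the keto-reductase of sterol C4 demethylation, had 37.9, 37.4 and 41.1 CPM in KO CB-103 against 14.9, 17.1 and 17.01 CPM in KO DMSO libraries. It had 54.7, 55.0 and 64.4 CPM in NT CB-103 against 14.2, 13.2 and 14.7 CPM in NT DMSO libraries. The rise was 2.37-fold in KO and 4.12-fold in NT cells. Its near-identical copy HSD17B7P2 moved the same way, to 5.82 ± 0.263 CPM in KO CB-103 against 1.83 ± 0.173 CPM in KO DMSO libraries and to 10.75 ± 0.815 CPM in NT CB-103 against 1.60 ± 0.183 CPM in NT DMSO libraries, and how reads were shared between the pair is uncertain. MSMO1, the oxidase of the same demethylation, had 60.2, 48.5 and 55.4 CPM in KO CB-103 and 26.9, 26.5 and 25.1 CPM in KO DMSO libraries, and 52.6, 47.8 and 49.7 CPM in NT CB-103 and 21.5, 21.4 and 19.7 CPM in NT DMSO libraries, with no overlap in either genotype (2.09-fold and 2.403-fold). Between these, NSDHL, the decarboxylase of that step, changed little (log2 0.14 in KO, adjusted p = 0.13, and 0.18 in NT, adjusted p = 0.038, a call lost in 9 alternative settings). DHCR7, a sterol reductase of the last steps, rose 1.81-fold in KO and 1.90-fold in NT cells. TM7SF2, which reduces the sterol nucleus earlier in the path, rose 1.57-fold and 1.97-fold, and LSS, which closes the sterol rings, 1.397-fold and 1.57-fold. The rises of FDFT1 (squalene synthase), SQLE (squalene epoxidase), EBP (sterol isomerase) and SC5D (sterol desaturase) were smaller, between 0.31 for SQLE and 0.56 for EBP on the log2 scale in KO cells and between 0.24 for SQLE and 0.53 for FDFT1 in NT cells. CYP51A1, the lanosterol demethylase, stood apart by its level, with 20 to 62 reads in any library and a mean of 0.473 ± 0.131 TPM in KO CB-103 and 0.665 ± 0.0889 TPM in NT DMSO libraries, and was called with CB-103 in neither genotype (adjusted p = 0.51 in KO and 0.11 in NT cells).

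**Figure D2:**
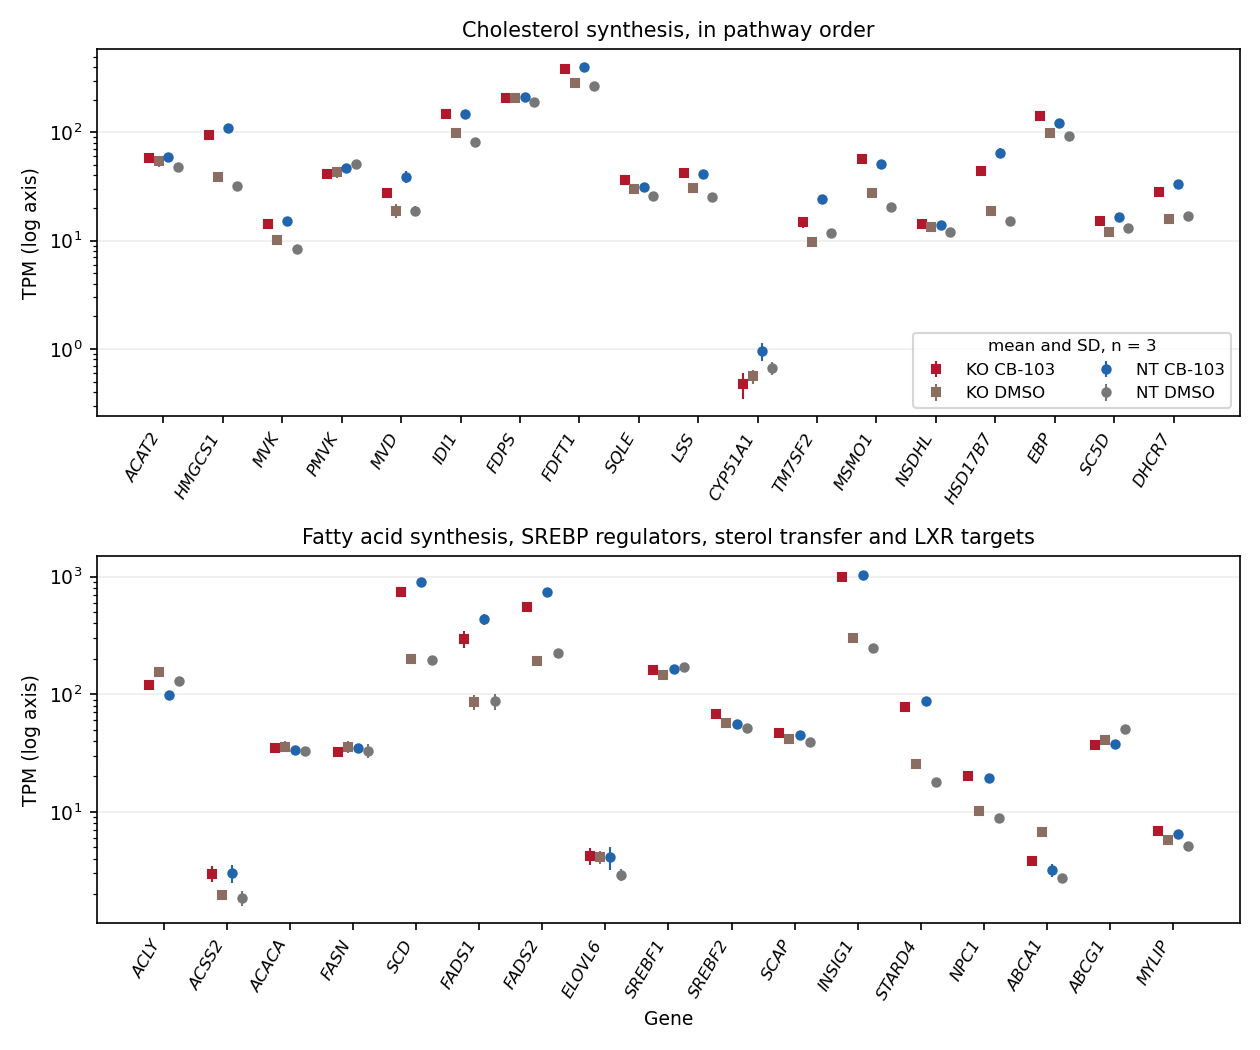
Length-normalised levels (TPM, logarithmic axis) of the 18 cholesterol synthesis genes in pathway order in the upper panel and of the other 17 genes in the lower panel, as mean and SD of 3 libraries in KO CB-103, KO DMSO, NT CB-103 and NT DMSO. FDPS and FDFT1 are high in all 4 groups, CYP51A1 lies below 1 TPM, and INSIG1 and SCD reach 1038 ± 39.8 and 898 ± 35.9 TPM in NT CB-103 libraries.

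Both sterol transfer genes rose. STARD4, a soluble carrier of sterol between membranes, had 115, 110.1 and 115 CPM in KO CB-103 against 35.4, 36.3 and 35.3 CPM in KO DMSO libraries. It had 121, 122 and 139 CPM in NT CB-103 against 28.3, 24.9 and 28.2 CPM in NT DMSO libraries. The 3 libraries of each group lay close together, and the rise was 3.18-fold in KO (log2 1.67 ± 0.07 (SE), adjusted p = 8.9e-13) and 4.67-fold in NT cells (log2 2.23 ± 0.07 (SE), adjusted p = 1.6e-14). NPC1, which exports cholesterol from lysosomes, rose 2.01-fold in KO and 2.11-fold in NT cells.

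Fatty acid synthesis was divided between genes that build the chain and genes that desaturate it. SCD, the desaturase that makes oleate, had 2849, 2417 and 2582 CPM in KO CB-103 against 704, 683 and 683 CPM in KO DMSO libraries. It had 3441, 3129 and 3046 CPM in NT CB-103 against 742, 712 and 699.9 CPM in NT DMSO libraries. No other gene of the 35 drew more reads, and the rise was 3.79-fold in KO and 4.46-fold in NT cells (adjusted p = 1.1e-13 and 1.5e-14). FADS1, a desaturase of polyunsaturated fatty acids, had 1040, 755 and 834 CPM in KO CB-103 against 297, 229.6 and 223 CPM in KO DMSO libraries. It had 1504, 1239 and 1160 CPM in NT CB-103 against 318, 246 and 246 CPM in NT DMSO libraries. In each of the 6 groups the library numbered 1 was the highest for FADS1, by 0.34 on the log2 scale on average, which is less than the rise of 1.81 in KO and 2.27 in NT cells. With replicates 2 and 3 only, FADS1 rose by 1.85 in KO and 2.30 in NT cells on the log2 scale. FADS2, the other desaturase of that pathway, had 1311, 1122 and 1168 CPM in KO CB-103 against 413, 400.4 and 400.5 CPM in KO DMSO libraries and 1756, 1572 and 1489 CPM in NT CB-103 against 530.4, 507 and 499 CPM in NT DMSO libraries (2.97-fold and 3.13-fold). FADS1 and FADS2 overlap on opposite strands, and the sources used here do not say whether reads were counted by strand. The shift of replicate 1 was not that of FADS1 alone. ACAT2, SQLE, TM7SF2 and SCD were also higher there than in replicates 2 and 3 in all 6 groups. Their mean shifts were 0.21, 0.12, 0.11 and 0.12 on the log2 scale. PMVK and LSS were lower there in all 6 groups, by 0.11 and 0.08 on average. How many of all genes shifted this way in replicate 1 was not counted, so these shifts are no mark of the 35 genes.

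The chain-building genes did not follow. FASN, fatty acid synthase, averaged 158 ± 7.22 CPM in KO CB-103 and 174 ± 19.1 CPM in KO DMSO libraries, and 174 ± 15.6 CPM in NT CB-103 and 171 ± 20.6 CPM in NT DMSO libraries (log2 -0.13 ± 0.11 and 0.02 ± 0.11). ACACA, which supplies malonyl-CoA, differed by -0.01 ± 0.06 in KO and -0.04 ± 0.06 in NT cells on the log2 scale, and neither passed. FASN was the single gene of the 35 with no call in any comparison of 2 groups. ACLY, which makes acetyl-CoA from citrate, fell to 426 ± 20.4 CPM in KO CB-103, against 535 ± 11.9 CPM in KO DMSO libraries, and to 355 ± 12.8 CPM in NT CB-103, against 483 ± 2.21 CPM in NT DMSO libraries (log2 -0.33 ± 0.05 and -0.44 ± 0.05). ACSS2, which makes acetyl-CoA from acetate, had 4.23, 4.96 and 5.95 CPM in KO CB-103 against 3.07, 3.41 and 3.28 CPM in KO DMSO libraries. It had 4.67, 5.99 and 4.69 CPM in NT CB-103 against 3.64, 2.69 and 3.45 CPM in NT DMSO libraries, so that ACSS2 rose while ACLY fell, with no overlap between groups. The ACSS2 call in KO cells was lost with gene sums of the transcript estimates. ELOVL6, which elongates palmitate, was called in NT cells alone (log2 0.43, against 0.08 in KO cells with an adjusted p of 0.71). Its NT CB-103 and NT DMSO libraries overlapped, the call was lost in 4 alternative settings, 3 of which each leave out a single library (NT CB-103 replicate 2, NT DMSO replicate 1 or NT DMSO replicate 2), and the difference between genotypes did not pass (adjusted p = 0.3).

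**Figure D3:**
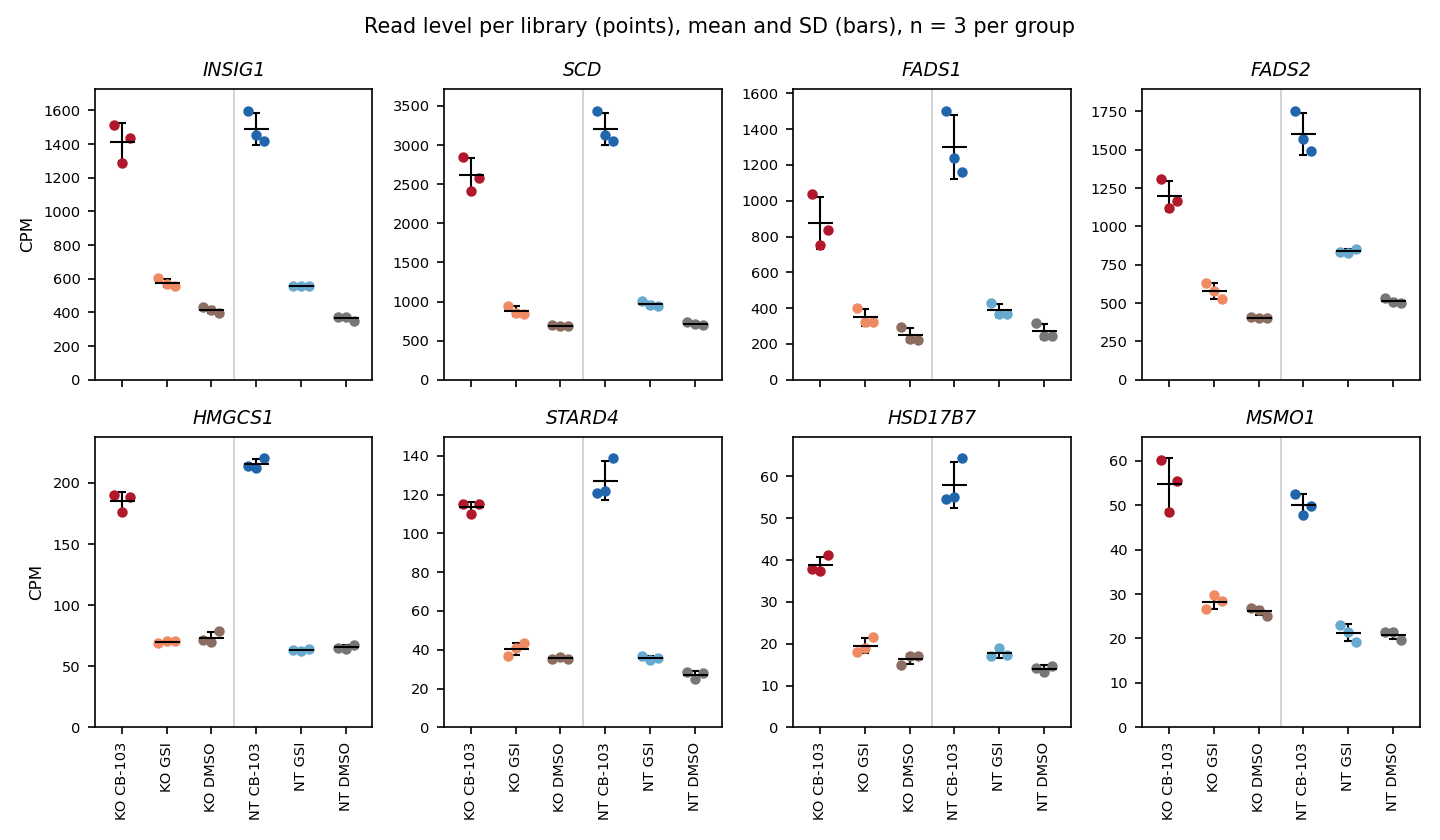
Read level (CPM, linear axes from 0) in each of the 18 libraries for 8 genes, with the group mean and SD. Points are libraries and the grey line separates KO from NT groups. For all 8 genes every CB-103 library lies above every GSI and every DMSO library of its genotype.

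The LXR targets moved in different directions. ABCA1, which exports cholesterol to lipid-poor apolipoprotein, had 30.7, 28.1 and 26.6 CPM in KO CB-103 against 47.8, 48.4 and 49.6 CPM in KO DMSO libraries. It had 22.2, 26.7 and 23.2 CPM in NT CB-103 and 21.5, 20.5 and 22.1 CPM in NT DMSO libraries. All KO CB-103 libraries lay below all KO DMSO libraries, 1.71-fold lower (adjusted p = 5.3e-08), while the NT difference did not pass (log2 0.17, adjusted p = 0.055). ABCG1, which exports cholesterol to high-density lipoprotein, had 85.2, 79.2 and 85.8 CPM in KO CB-103 and 93.7, 86.5 and 86.7 CPM in KO DMSO libraries, a difference that did not pass (log2 -0.09, adjusted p = 0.18). It had 90.9, 84.4 and 78.8 CPM in NT CB-103 against 117, 120.3 and 119 CPM in NT DMSO libraries, 1.401-fold lower. MYLIP, the ubiquitin ligase gene, rose by 0.28 in KO and 0.31 in NT cells on the log2 scale. Its calls were lost in 2 alternative settings in KO and 1 in NT cells. SREBF1, also an LXR target, was not called with CB-103.

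Promoter sequence of the genes that rose most with CB-103 in NT cells is shown because SREBPs bind sterol regulatory elements and are known to act together with NF-Y at CCAAT boxes and Sp1 at GC boxes. RefSeq promoter windows of GRCh38.p14, from 250 bases before to 50 bases after each start, were matched for 30 of the 35 genes as 40 promoters. Only the bases ahead of the gene's GENCODE starts in that window are printed, 5′ to 3′ along the gene's strand, with capitals for CCAAT or GGGCGG on either strand. SREBF2 is added as the gene whose promoter holds TCACNCCAC, the core of the classical sterol regulatory element, which is also in capitals, and it was chosen after the search.
FADS1 (chr11:61817198-61817253, minus strand): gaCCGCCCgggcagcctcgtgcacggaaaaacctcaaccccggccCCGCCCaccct
STARD4 (chr5:111512591-111512785, minus strand): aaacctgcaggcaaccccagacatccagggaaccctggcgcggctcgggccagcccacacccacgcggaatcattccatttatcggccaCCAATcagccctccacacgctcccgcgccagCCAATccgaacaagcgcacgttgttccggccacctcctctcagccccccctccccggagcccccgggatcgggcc
SCD (chr10:100346983-100347123, plus strand): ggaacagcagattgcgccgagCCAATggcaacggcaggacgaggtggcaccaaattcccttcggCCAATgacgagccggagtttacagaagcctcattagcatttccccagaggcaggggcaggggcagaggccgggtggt
HSD17B7 (chr1:162790452-162790701, plus strand): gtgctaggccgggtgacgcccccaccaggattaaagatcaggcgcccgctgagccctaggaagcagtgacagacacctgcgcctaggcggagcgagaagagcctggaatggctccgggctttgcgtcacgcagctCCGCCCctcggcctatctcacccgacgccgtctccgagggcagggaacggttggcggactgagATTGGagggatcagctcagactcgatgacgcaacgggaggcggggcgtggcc
SREBF2 (chr22:41832855-41833078, plus strand): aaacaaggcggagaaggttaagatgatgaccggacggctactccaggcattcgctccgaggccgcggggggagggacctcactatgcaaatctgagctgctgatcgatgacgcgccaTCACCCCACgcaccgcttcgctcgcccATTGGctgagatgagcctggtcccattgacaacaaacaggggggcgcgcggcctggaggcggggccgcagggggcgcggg
STARD4 and SCD each show 2 CCAAT matches in the printed stretch, HSD17B7 and SREBF2 show 1 each, and GGGCGG matches number 2 in FADS1 and 1 in HSD17B7. Over whole windows and both strands, CCAAT was in 26 of the 40 promoters (65%) and in 34.6% of all 35116 promoters of the table. GGGCGG was in 36 of 40 (90%) and in 45% of all promoters. CACGTG, the E-box that SREBPs also bind, was in 6 of 40 (15%) and in 7.26% of all. TCACNCCAC was in 1 of 40, that of SREBF2, and in 1.13% of all. None of these motifs overlaps another in the printed stretches. The FADS1 stretch lies ahead of its most abundant transcript, but within the span of rarer FADS1 transcripts that start further upstream and of FADS2 on the other strand, and holds no annotated exon. The STARD4 stretch lies in an intron of STARD4-AS1, and the SREBF2 stretch in an exon of SREBF2-AS1, both antisense genes. A match is a description of these letters and not a measured binding site.

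GSI changed fewer of the 35 genes, and by less. In KO cells 13 were higher and 4 lower with GSI, where 19.3% of all genes passed (9.69% higher and 9.58% lower), and in NT cells also 13 were higher and 4 lower, where 24.7% of all genes passed (9.67% higher and 15% lower). Without replicate 1, 2 or 3 of NT GSI, whose libraries stood apart from each other, 12, 15 or 14 genes were called in NT cells. Their median log2 fold change was 0.11 in both genotypes, beside medians over all genes of 0.00 in KO and 0.01 in NT cells. The 11 genes called higher in both genotypes were IDI1, TM7SF2, HSD17B7, EBP, SREBF1, INSIG1, ABCG1, ACSS2, SCD, FADS1 and FADS2, and ABCA1 and DHCR7 were lower in both. The share of all genes called in both was not taken. The HSD17B7 call was lost in 7 alternative settings in KO cells, limma-voom among them, and in 1 in NT cells. The IDI1 call was lost in 2 in NT cells. ABCA1 was the single gene of the 35 that moved at least 2-fold with GSI, a size that 1.86% of all genes reached in KO and 2.94% in NT cells. It had 13.6, 13.4 and 13.9 CPM in KO GSI against the KO DMSO values above, 3.57-fold lower (adjusted p = 8.4e-12). It had 8.04, 7.58 and 6.94 CPM in NT GSI libraries, 2.84-fold lower than in NT DMSO (adjusted p = 2.1e-10), with no overlap in either genotype.

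Several SREBP targets rose modestly with GSI. INSIG1 had 603, 572 and 556 CPM in KO GSI and 559, 559 and 559 CPM in NT GSI libraries, 1.39-fold and 1.53-fold above DMSO. FADS2 had 633, 577 and 526 CPM in KO GSI and 834, 826 and 856 CPM in NT GSI libraries (1.43-fold and 1.64-fold). FADS1 had 403, 321 and 321 CPM in KO GSI and 431, 369 and 368 CPM in NT GSI libraries (log2 0.48 ± 0.15 and 0.53 ± 0.14, calls that in each genotype were lost without GSI replicate 1 or without DMSO replicate 2 or 3). In each of these the GSI libraries stood above the DMSO libraries of the genotype and below its CB-103 libraries. SCD rose by 0.35 in KO and 0.43 in NT cells on the log2 scale. ACSS2 had 5.25, 5.65 and 5.51 CPM in KO GSI and 6.51, 4.66 and 4.83 CPM in NT GSI libraries, 1.68-fold and 1.64-fold above DMSO and about level with CB-103. TM7SF2 had 9.93, 10.8 and 8.75 CPM in KO GSI against 8.05, 6.72 and 7.34 CPM in KO DMSO libraries and 14.6, 13.8 and 15.4 CPM in NT GSI against 9.79, 8.92 and 10.4 CPM in NT DMSO libraries (1.34-fold, lost without replicate 2 of either KO group, and 1.51-fold). STARD4 was called with GSI in NT cells (log2 0.39) and not in KO cells (0.18, adjusted p = 0.071), a difference between genotypes that did not pass (adjusted p = 0.23). HMGCS1, with 69.3, 70.9 and 70.2 CPM in KO GSI and 63.2, 62.8 and 64.3 CPM in NT GSI libraries, did not pass in either genotype (log2 -0.07 ± 0.05 and -0.04 ± 0.05).

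SREBF1 and ABCG1 rose with GSI and not with CB-103. SREBF1 had 286, 255 and 242 CPM in KO GSI and 351, 281 and 355 CPM in NT GSI libraries, 1.396-fold and 1.41-fold above DMSO (adjusted p = 0.00053 and 0.00026). The KO call of SREBF1 was lost with gene sums of the transcript estimates, and 23.6 to 38.8% of the SREBF1 TPM, by group mean, was assigned to transcripts annotated as retaining an intron. ABCG1 had 118, 127 and 126 CPM in KO GSI and 144, 151 and 152 CPM in NT GSI libraries, log2 0.48 ± 0.05 and 0.33 ± 0.05 above DMSO. So ABCA1 and ABCG1, both LXR targets and cholesterol exporters, went opposite ways with GSI. DHCR7 fell by 0.27 in KO and by 0.20 in NT cells on the log2 scale, but the KO call was lost with gene sums of the transcript estimates and the NT call in 4 alternative settings, among them leaving out NT DMSO replicate 2. SREBF2 had 237, 216 and 223 CPM in KO GSI and 219, 216 and 228 CPM in NT GSI libraries and passed in neither genotype (adjusted p = 0.16 and 0.1). SCAP had 94.0, 89.9 and 86.6 CPM in KO GSI and 97.5, 90.8 and 100.5 CPM in NT GSI libraries, called lower in KO cells alone (log2 -0.16), a call lost in 8 alternative settings. Of the others, FDPS and MYLIP were called higher and ACACA lower in KO cells alone (log2 0.13, 0.33 and -0.24), and LSS was called higher and FDFT1 and NSDHL lower in NT cells alone (log2 0.19, -0.16 and -0.21). These were weak calls, lost in 5 alternative settings for FDPS, 3 each for MYLIP and ACACA, 8 each for LSS and FDFT1 and 10 for NSDHL.

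**Figure D4:**
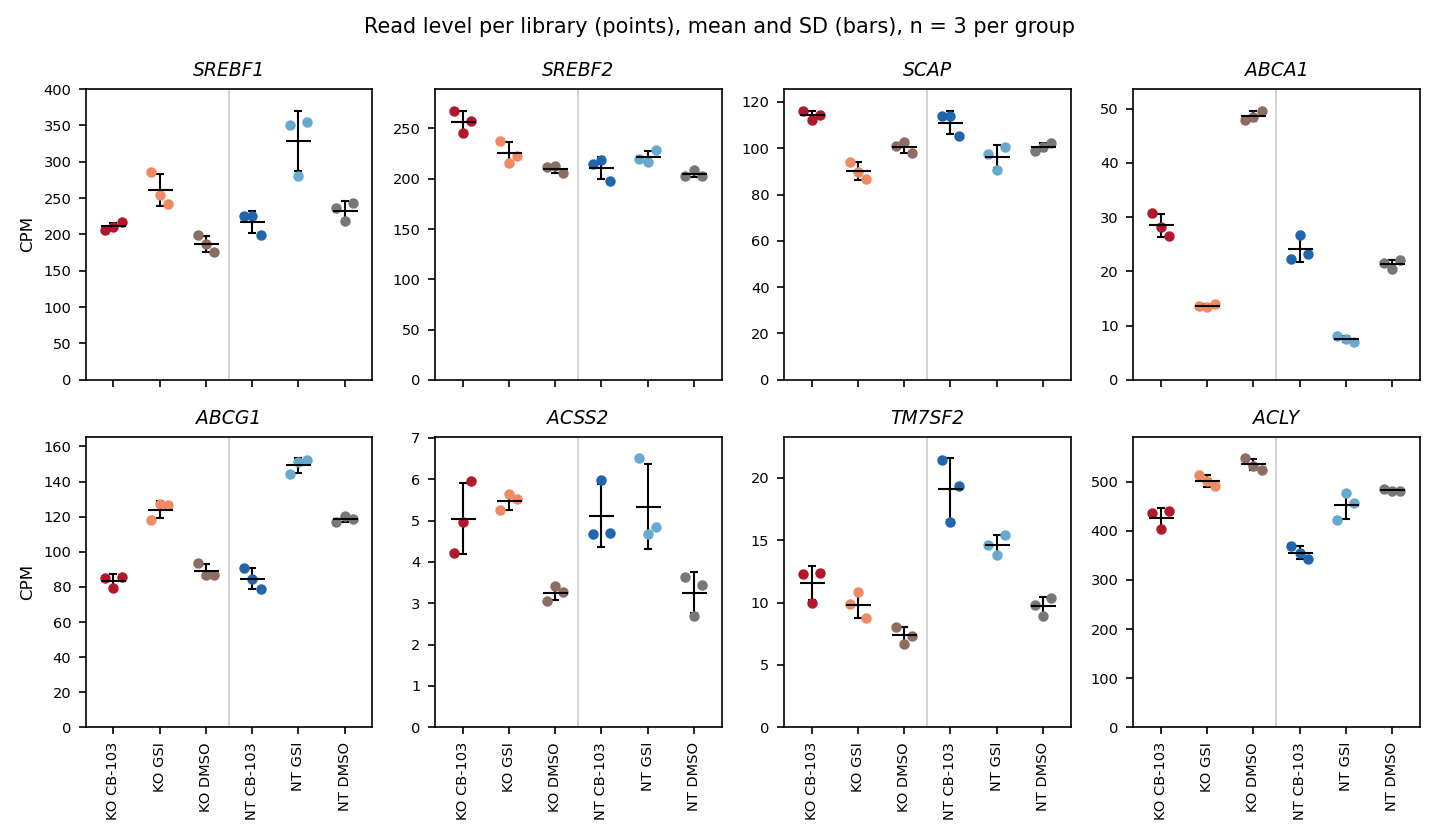
Read level (CPM, linear axes from 0) in each of the 18 libraries for 8 genes of regulation, sterol export and acetyl-CoA supply, with the group mean and SD. Points are libraries and the grey line separates KO from NT groups. ABCA1 is highest in KO DMSO and lowest in NT GSI libraries, and SREBF1 and ABCG1 are highest in NT GSI libraries.

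Set directly against each other, CB-103 left 21 of the 35 genes higher and 3 lower than GSI in KO cells, where 47.9% of all genes passed (24.7% higher and 23.1% lower). In NT cells 22 were higher and 3 lower, where 56.3% passed (29.2% higher and 27.1% lower). Doses are unstated, and the compounds are not analogs, so the comparison is of these 2 treatments only. STARD4 was 2.80-fold higher with CB-103 than with GSI in KO cells (115, 110.1 and 115 against 37.0, 40.8 and 43.5 CPM) and 3.57-fold in NT cells (121, 122 and 139 against 36.7, 34.5 and 35.6 CPM). SCD was 2.97-fold and 3.31-fold higher, with 948, 858 and 836 CPM in KO GSI and 1002, 956 and 942 CPM in NT GSI libraries. HMGCS1 (2.63-fold and 3.40-fold) and FADS1 (2.52-fold and 3.34-fold) completed the 4 with the largest differences in both genotypes. The 3 lower genes were the same in both, SREBF1 (-0.31 in KO and -0.60 in NT cells on the log2 scale), ABCG1 (-0.57 and -0.82) and ACLY (-0.24 and -0.35). With gene sums of the transcript estimates, SREBF1 in KO cells was instead 0.12 higher with CB-103 and did not pass. ACSS2 did not pass between the inhibitors (log2 -0.12 ± 0.16 and -0.06 ± 0.16), nor did FASN (0.02 ± 0.11 and 0.04 ± 0.11).

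Between the genotypes the 35 genes showed no common direction under DMSO. In KO DMSO against NT DMSO 7 were higher and 6 lower, where 21.4% of all genes passed (9.78% higher and 11.7% lower), and their median difference was 0.02 on the log2 scale. Without replicate 2 or 3 of NT DMSO, or without replicate 2 of KO DMSO, 8 genes were called. ABCA1 differed most, with 47.8, 48.4 and 49.6 CPM in KO DMSO against 21.5, 20.5 and 22.1 CPM in NT DMSO libraries, 2.28-fold higher (log2 1.19 ± 0.07 (SE), adjusted p = 2.9e-09). ABCG1, with 93.7, 86.5 and 86.7 CPM in KO DMSO against 117, 120.3 and 119 CPM in NT DMSO libraries, was 1.33-fold lower, so both exporters separated the genotypes without overlap and in opposite directions. TM7SF2 was lower (log2 -0.40 ± 0.12, adjusted p = 0.02, lost without replicate 1 or 3 of NT DMSO or without replicate 2 of KO DMSO). STARD4 was higher in KO DMSO libraries (35.4, 36.3 and 35.3 CPM) than in NT DMSO libraries (28.3, 24.9 and 28.2 CPM), by 0.39 ± 0.07 on the log2 scale. Among the other calls, MSMO1 was higher (log2 0.33), and PMVK, FADS2, SREBF1 and DHCR7 were lower (log2 -0.35, -0.34, -0.32 and -0.18). The DHCR7 call was lost in 4 alternative settings, among them leaving out KO DMSO replicate 2 or NT DMSO replicate 2 or 3, and the SREBF1 call in 2, gene sums of the transcript estimates and leaving out NT DMSO replicate 3. Higher calls of HMGCS1, IDI1, INSIG1 and ACLY, all between 0.15 and 0.18, were each lost in 6 to 10 alternative settings.

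Under CB-103, KO cells had lower levels of some strongly responding genes and not of others. In KO CB-103 against NT CB-103 4 genes were higher and 9 lower, where 37% of all genes passed (20.4% higher and 16.5% lower). CYP51A1 had the largest difference (0.629, 1.09 and 0.805 CPM in KO CB-103 against 1.49, 1.98 and 1.66 CPM in NT CB-103 libraries, log2 -1.02 ± 0.24 (SE), adjusted p = 0.0031), resting on few reads. TM7SF2, with 12.3, 9.97 and 12.4 CPM in KO CB-103 against 21.4, 16.5 and 19.4 CPM in NT CB-103 libraries, was 1.65-fold lower. HSD17B7 and FADS1 were 1.495-fold and 1.49-fold lower. MVD, FADS2, SCD, DHCR7 and HMGCS1 were lower by 0.51, 0.42, 0.29, 0.25 and 0.22 on the log2 scale, and SREBF2, ACLY, ABCA1 and EBP were higher (0.29, 0.26, 0.25 and 0.21). The ABCA1 call was lost without KO CB-103 replicate 1 and without NT CB-103 replicate 1 or 3, and the EBP call without KO CB-103 replicate 2 or 3 and without NT CB-103 replicate 2. The MVD call was lost with gene sums of the transcript estimates. INSIG1, STARD4, NPC1 and MSMO1, also at least 2-fold higher with CB-103, did not pass between the genotypes (adjusted p = 0.33, 0.051, 0.74 and 0.21).

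Under GSI, 9 genes were higher and 8 lower in KO than in NT cells, where 33.8% of all genes passed (18.8% higher and 15% lower). Without replicate 1, 2 or 3 of NT GSI, 13, 14 or 13 genes were called. ABCA1 was 1.81-fold higher (13.6, 13.4 and 13.9 CPM in KO GSI against 8.04, 7.58 and 6.94 CPM in NT GSI libraries). TM7SF2 was 1.49-fold and FADS2 1.45-fold lower, and MSMO1 was 1.33-fold higher (26.6, 29.8 and 28.4 CPM in KO GSI against 23.1, 21.4 and 19.3 CPM in NT GSI libraries). IDI1, NSDHL, SQLE, STARD4, FDFT1, ACLY and HMGCS1 were also higher, by 0.15 to 0.34, and MVD, SREBF1, ABCG1, DHCR7, PMVK and ACACA also lower. Of these, the calls of STARD4, PMVK, FDFT1, ACLY, HMGCS1, ACACA and MVD were lost in 2 to 9 alternative settings that include leaving out single libraries. Over the 3 treatments, ABCA1 and ACLY were called higher in KO cells each time, and TM7SF2, DHCR7 and FADS2 lower each time. Of these, the ACLY call was lost in 10 alternative settings under DMSO and in 6 under GSI. The ABCA1 call was lost in 5 under CB-103, and the DHCR7 and TM7SF2 calls in 4 and 3 under DMSO. The share of all genes with the same call at each treatment was not taken.

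The response to CB-103 itself differed between genotypes for 7 of the 35 genes, by the test of the interaction (KO response minus NT response), where 14.6% of all genes passed (10.3% higher and 4.34% lower). For 5 genes it was lower and for 2 higher. ABCA1 differed most (log2 -0.94 ± 0.10 (SE), adjusted p = 1.4e-05): it fell in KO cells, against no call in NT cells. HSD17B7 rose in both genotypes, by 1.25 in KO and 2.04 in NT cells on the log2 scale (difference -0.80 ± 0.12 (SE), adjusted p = 0.00022). For STARD4 the rises were 1.67 in KO and 2.23 in NT cells (difference -0.56 ± 0.09 (SE), adjusted p = 0.00065), with NT cells starting lower under DMSO. HMGCS1 rose by 1.33 in KO and 1.72 in NT cells (difference -0.39 ± 0.07 (SE), adjusted p = 0.00086). INSIG1 passed narrowly (difference -0.26 ± 0.08, adjusted p = 0.044) and was lost in 13 alternative settings. ABCG1 fell in NT cells and was not called in KO cells (difference 0.39 ± 0.08 (SE), adjusted p = 0.0022), and its level under CB-103 did not pass between the genotypes (log2 -0.02 ± 0.06). SREBF2 rose more in KO cells (difference 0.25 ± 0.07, adjusted p = 0.019), a call lost in 6 alternative settings. Of the 22 genes that rose in both genotypes, 18 had the smaller log2 fold change in KO cells. Over all genes this was so for 68.6% of the 3613 called higher in both, so the count is no mark of these genes. Most of the differences did not pass on their own, among them SCD (-0.24 ± 0.09, adjusted p = 0.088), FADS1 (-0.46 ± 0.20, adjusted p = 0.15) and FADS2 (-0.08 ± 0.10, adjusted p = 0.67).

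**Figure D5:**
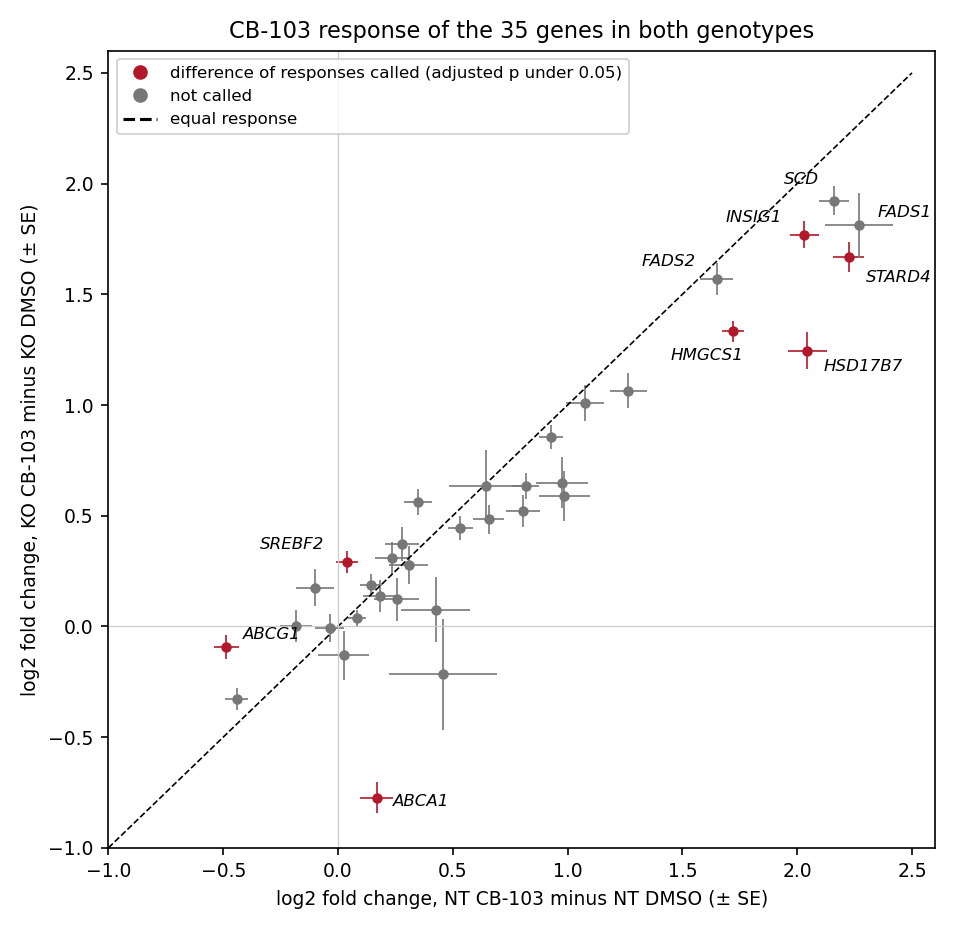
Log2 fold change with CB-103 over DMSO in KO cells (vertical axis) against NT cells (horizontal axis) for the 35 genes, with SE bars and a dashed line of equal response. Red points are the 7 genes whose responses differed at an adjusted p under 0.05. HSD17B7, STARD4 and HMGCS1 lie below the line among the strong responders, and ABCA1 lies apart at -0.77 in KO and 0.17 in NT cells.

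For the response to GSI no gene of the 35 passed the interaction test, where 2.79% of all genes passed. At an unadjusted p under 0.05 there were 5, ABCA1, ACACA, LSS, NSDHL and STARD4. The share of all genes at that level was not taken, so this count is no result about the 35 genes. DESeq2's Wald test and limma-voom also called 0, and gene sums of the transcript estimates called 1, FASN (log2 -0.59, adjusted p = 0.049). ABCA1 had a difference of -0.33 ± 0.11 on the log2 scale (adjusted p = 0.097).

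In TPM, which allows levels of different genes to be compared per length, INSIG1 was the most abundant of the 35 transcripts in KO CB-103 libraries (993 ± 73.8 TPM), followed by SCD (741 ± 61.5 TPM) and FADS2 (555 ± 47.1 TPM). In KO DMSO libraries INSIG1 stood at 299 ± 9.63 TPM and FDFT1 at 287 ± 5.06 TPM, a pair whose SD ranges touched. Summed over the genes of fatty acid synthesis, the level was 1785 ± 160 TPM in KO CB-103 and 709.9 ± 10.6 TPM in KO DMSO libraries, and 2239 ± 130 TPM in NT CB-103 and 707.7 ± 21.1 TPM in NT DMSO libraries, most of it SCD, FADS1 and FADS2. The 11 genes from squalene to cholesterol summed to 774.5 ± 24.7 TPM in KO CB-103 and 544.7 ± 10.8 TPM in KO DMSO libraries, and to 799.3 ± 25.5 TPM in NT CB-103 and 500.3 ± 8.64 TPM in NT DMSO libraries. The mevalonate arm summed to 592.1 ± 4.85 TPM in KO CB-103 and 470.3 ± 10.0 TPM in KO DMSO libraries, and to 627.3 ± 22.8 TPM in NT CB-103 and 430.5 ± 13.7 TPM in NT DMSO libraries. CYP51A1, ABCA1, ACSS2, ELOVL6 and MYLIP were the lowest, with group means up to 0.956, 6.69, 3.19, 4.25 and 6.85 TPM.

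SREBF1 has an upstream start, whose transcript encodes the long amino-terminal form known as SREBP-1a, and a downstream start for the shorter SREBP-1c, the form that LXRs induce. By transcript TPM, the upstream start exceeded the downstream start in the mean of every group. The upstream start had 69.7 ± 1.96 TPM in KO CB-103, 62.5 ± 3.96 TPM in KO GSI and 52.5 ± 3.43 TPM in KO DMSO libraries, and 56.2 ± 4.90 TPM in NT CB-103, 78.5 ± 15.6 TPM in NT GSI and 54.7 ± 6.76 TPM in NT DMSO libraries. The downstream start had 26.6 ± 8.23 TPM in KO CB-103, 37.9 ± 15.4 TPM in KO GSI and 21.7 ± 5.56 TPM in KO DMSO libraries, and 24.2 ± 8.94 TPM in NT CB-103, 35.3 ± 9.41 TPM in NT GSI and 26.0 ± 7.26 TPM in NT DMSO libraries. The spread of the downstream start was wide in every group, and differences in the use of the starts were not tested. For FADS2, transcripts from the upstream start stood at 230.3 ± 27.3 TPM in KO CB-103, against 81.1 ± 3.77 TPM in KO DMSO libraries, and those from the downstream start at 311.8 ± 26.2 TPM in KO CB-103, against 104.3 ± 2.14 TPM in KO DMSO libraries. Both starts stood higher with CB-103.

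Neighbouring pathways, taken as lists of genes chosen for their roles, did not move as one. Their counts stand beside the 48.6% of all genes called with CB-103 in KO cells (24.9% higher) and the 58.2% in NT cells (29.5% higher). Of 8 partners of SREBP processing, 6 were higher and 0 lower with CB-103 in KO cells, and 2 higher and 3 lower in NT cells. INSIG2, the other INSIG, rose to 30.7 ± 2.57 CPM in NT CB-103, against 20.5 ± 0.311 CPM in NT DMSO libraries. ERLIN1, a membrane protein of the endoplasmic reticulum, fell to 50.5 ± 2.26 CPM in NT CB-103, against 64.0 ± 1.33 CPM in NT DMSO libraries. In KO cells ERLIN1 was not called (log2 -0.12, adjusted p = 0.095). Of 13 genes of LXR, oxysterol and sterol handling 11 were tested, and 5 were higher and 1 lower with CB-103 in KO cells, 3 higher and 2 lower in NT cells. RXRA, the partner receptor of LXRs, moved most: it had 30.4 ± 1.00 CPM in KO CB-103 against 12.9 ± 0.759 CPM in KO DMSO libraries and 13.7 ± 0.232 CPM in NT CB-103 against 4.87 ± 0.694 CPM in NT DMSO libraries. With GSI it had 4.73 ± 0.662 CPM in KO and 0.406 ± 0.0368 CPM in NT libraries. OSBP, the oxysterol binding protein, rose by 1.00 in KO and 1.20 in NT cells on the log2 scale with CB-103. NPC2, the lysosomal partner of NPC1, fell by 0.57 in NT cells and was not called in KO cells (log2 0.09, adjusted p = 0.32).

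In the isoprenoid branches, which use the products of FDPS, 7 of 13 genes were higher and 3 lower with CB-103 in each genotype. DHDDS and NUS1, the subunits of the dolichol-forming transferase, had 92.2 ± 3.50 and 229 ± 12.1 CPM in NT CB-103 against 31.9 ± 1.61 and 113 ± 4.88 CPM in NT DMSO libraries, while PDSS1, which builds the ubiquinone tail, fell by 1.29 on the log2 scale. Of 13 genes of fatty acid elongation and activation 12 were tested, and 5 were higher and 4 lower with CB-103 in KO cells, 4 higher and 3 lower in NT cells. ELOVL7 was called higher at under 1 CPM, and SCD5, the second stearoyl desaturase gene, fell to 49.9 ± 5.49 CPM in NT CB-103, against 90.3 ± 1.71 CPM in NT DMSO libraries, opposite to SCD. SLC25A1, the mitochondrial citrate carrier that feeds ACLY, fell by 0.56 in KO and by 0.76 in NT cells on the log2 scale. Of 12 genes of phospholipid and triglyceride synthesis, 3 were higher and 4 lower in each genotype. DGAT2 and AGPAT2, of triglyceride synthesis, fell by 3.00 and by 1.94 on the log2 scale in NT cells, and PCYT1A, which controls phosphatidylcholine synthesis, rose by 1.21. Of 10 genes of fatty acid oxidation, 3 were higher and 2 lower in KO cells and 4 higher and 5 lower in NT cells, led by ACADVL, the very-long-chain dehydrogenase, at 1022 ± 53.5 CPM in NT CB-103 against 268 ± 20.6 CPM in NT DMSO libraries. PPARD, a nuclear receptor for fatty acids, was also higher (log2 0.73).

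Between KO DMSO and NT DMSO these lists held calls in both directions except for 1 list, beside the 21.4% of all genes called (9.78% higher and 11.7% lower). The SREBP processing list had 0 higher and 1 lower, ERLIN2 (log2 -0.30). The sterol handling list had 1 higher, RXRA (log2 1.41), and 3 lower, among them NPC2 (-0.53) and SOAT1, which esterifies cholesterol (-0.31). The isoprenoid list had 1 higher and 4 lower, led by FNTB, a farnesyltransferase subunit, PDSS2 and COQ2 (log2 -0.66, -0.61 and -0.56). In the elongation and activation list 6 were higher and 1 lower, led by ACSL1, a fatty acyl-CoA synthetase at 2.30 ± 0.21 CPM in KO DMSO against 1.04 ± 0.0996 CPM in NT DMSO libraries, ACACB and SLC25A1 (log2 1.14, 0.52 and 0.38). The phospholipid and triglyceride list had 2 higher and 3 lower, with DGAT2, AGPAT2 and PCYT1A leading (log2 -0.67, -0.55 and 0.28). The oxidation list had 3 higher and 2 lower, with SLC25A20, PPARA and PPARD leading (log2 0.49, 0.49 and -0.34).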

How the data were processed

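Poly(A)-selected RNA was sequenced from 18 libraries in 6 groups of 3. Salmon 1.4.0, HISAT2 2.2.1, FastQC 0.11.9 and bcl2fastq 2.20 stand in the submitters' processing notes, with hg38 as the build. The deposited gene table holds expected counts, estimated reads rounded to whole numbers, and the deposited transcript files hold estimated counts and TPM for the 206601 transcripts of GENCODE 29. Gene TPM was taken here as the sum over transcripts. The kit was stranded per the labels' protocols, and whether counting used strand is not given in the sources used here. Of 58735 gene IDs, 58207 had a symbol.

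edgeR 4.0.16 (R 4.3.3) was run with TMM scaling (factors 0.954 to 1.03), its count filter (17346 genes kept), a mean per group over all libraries (12 residual degrees of freedom), quasi-likelihood F tests and Benjamini-Hochberg adjustment over all genes, with calls at an adjusted p under 0.05. The fit was tested on simulated data. Alternatives used DESeq2 1.42.0 size factors or its Wald test, limma 3.58.1 (voom), no count filter, only the groups compared, a replicate block, replicates 2 and 3 only, gene sums of the transcript estimates, and each library left out in turn. Library-scaled counts are given as CPM. No replicate pair agreed within counting noise.

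Values in every library are given for the 6 called genes with the largest change in each inhibitor comparison with DMSO, the 4 such genes in each other comparison and interaction, and SREBF1, SREBF2, SCAP and INSIG1. Of each neighbouring list up to 3 called genes with the largest change in NT CB-103 against NT DMSO and in KO DMSO against NT DMSO are named, and some of these are not reported here. The 35 genes and the lists were chosen with earlier results of these data known.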

Additional observations from a re-analysis of the deposited data

Results flagged for a closer look

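The CB-103 response differed between KO and NT cells, by the test of the difference itself in edgeR's quasi-likelihood fit, for 7 of the 35 genes (3 libraries in each of the 4 groups), where 14.6% of all genes passed. As KO minus NT response on the log2 scale, the differences were -0.94 for ABCA1, -0.80 for HSD17B7, -0.56 for STARD4, -0.39 for HMGCS1, -0.26 for INSIG1, 0.25 for SREBF2 and 0.39 for ABCG1. The INSIG1 call was lost in 13 alternative settings and that of SREBF2 in 6. These genes are flagged for that difference, and its source was not tested. Single outlying libraries were not tested for.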

How the results depend on the processing

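Of 186 calls among the 35 genes, 4 were lost with DESeq2's Wald test, 3 with limma-voom, 13 with DESeq2 size factors, 16 with only the groups compared, 24 with no count filter, 23 with replicates 2 and 3 only and 13 with gene sums of the transcript estimates, which also reversed 1, SREBF1 in KO CB-103 against KO GSI (0.12 in place of -0.31 on the log2 scale; the cause was not tested). Leaving out single libraries lost 146 of 1158 calls. The number called in KO DMSO against NT DMSO was 13, against 8 with no count filter and 8 to 12 with a library left out. For the GSI interaction it was 0, against 1 with gene sums. The ranges with a library left out were 24 to 26 for CB-103 in KO, 24 to 27 for CB-103 in NT, 12 to 17 for GSI in KO, 12 to 15 for GSI in NT and 5 to 7 for the CB-103 interaction. Over all genes, the GSI interaction called 484, against 1257 with the Wald test, 995 with gene sums, 42 with replicates 2 and 3 only and 53 to 1505 with a library left out. Same-numbered libraries correlated at 0.257 to 0.352 for number 1, -0.0713 to 0.173 for number 2 and 0.047 to 0.147 for number 3, and 15 of 18 libraries were closest to their own number, a hint of shared structure in the data. The labels tie the numbers to no shared culture or day and not every pair exceeded 0.1, so the fits above carry no block. With the replicate block no call of the 186 was lost, the members called numbered 25 and 28 for CB-103 in KO and NT, 19 and 17 for GSI in KO and NT, 15 for genotype under DMSO and 9 for the CB-103 interaction, and the GSI interaction called 1291 of all genes. DESeq2 size factors moved the median of the 35 genes by at most 0.033 on the log2 scale. Results for CYP51A1 rest on 20 to 62 reads per library, and the cause of its low level was not tested.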
